A study of Homo sapiens with 6 samples.

Results

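Expression of 10 genes of chromatin silencing was compared between C4-2B parental cells and C4-2B enzalutamide resistant cells. The genes were the Polycomb repressive complex 2 (PRC2) genes EZH1, EZH2, SUZ12, EED and JARID2, the DNA methylation genes DNMT1, DNMT3A, DNMT3B and UHRF1, and the histone demethylase gene KDM1A. They were selected by symbol, with earlier results of these data known, and each matched 1 row of the 58024 genes in the expression table. C4-2B is a human prostate cancer cell line derived from LNCaP cells by passage as xenografts in castrated mice. Enzalutamide is an antiandrogen used against prostate cancer. The 3 resistant libraries came from cells taken through 1 to 20 µM enzalutamide over at least 6 months, with the survivors kept in 5 µM of the drug. The 3 parental libraries came from cells passaged in parallel with dimethyl sulfoxide, the vehicle, which the labels give as 1% and the study's methods as a lower share. The methods appear to place both lines in 10 µM enzalutamide at RNA extraction, so whether the parental cells received the drug is unclear from the sources. The resistant cells are a single selected population of 1 cell line. Differences tied to resistance and other differences between this population and its parent therefore cannot be told apart.

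PRC2 places methyl groups on lysine 27 of histone H3 (H3K27), a mark of silenced genes that is densest over developmental regulators in differentiated cells. EZH2 and EZH1 are its alternative catalytic subunits, EED binds the methylated histone and stimulates the enzyme, SUZ12 is the scaffold that holds the complex together, and JARID2 is an accessory subunit that helps to recruit it. DNA methylation is a separate silencing mark on cytosines of CpG dinucleotides. DNMT3A and DNMT3B place it on unmethylated DNA, whereas UHRF1 recognises DNA methylated on 1 strand after replication and brings in DNMT1, which copies the mark to the new strand. KDM1A, also called LSD1, removes methyl groups from lysine 4 of histone H3 within corepressor complexes. In prostate cancer EZH2 is a known marker of advanced disease.

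Expression was measured by RNA-Seq and given as FPKM, a count of fragments divided by transcript length and by the total mapped. Libraries carry the replicate numbers 0, 1 and 2 of the labels. The table holds no counts, so no counting interval can be given. The smallest steps between values put the depth at about 13300000 to 20100000 reads per library if fragments were 200 bases long, and 1 read on a transcript of 3000 bases was then worth 0.0177 to 0.0269 FPKM. On that scale, with each gene taken as a transcript of 3000 bases, the smallest number of reads for any of the 10 genes was about 198, in JARID2. Summed over all genes, a library held between 792975 and 870110 FPKM. The short RNA gene RMRP made up 18.4% to 21.5% of this sum in parental and 11.4% to 12.6% in resistant libraries, whereas RPPH1, of the same kind, stood at 0 in the former and at 10.7% to 11.6% in the latter. The luminal prostate markers KRT8, KRT18 and HOXB13 lay at 96.1 FPKM or more in every library. The 7 luminal markers together summed to 3474 to 4148 FPKM in parental and 1025 to 1098 FPKM in resistant libraries, with KLK3, which encodes prostate-specific antigen, at a log2 difference of -5.85. The basal markers KRT5 and TP63, the leukocyte markers PTPRC and CD3E and the endothelial markers PECAM1 and CDH5 were at 0 in parental libraries and at most 0.227 FPKM in resistant libraries. KRT14, the remaining basal marker, went the other way. It was at 0.587, 0.493 and 0.927 FPKM in parental libraries and at 0 in every resistant one. Summed levels in parental and resistant libraries were at most 0.927 and 0.262 FPKM for the 3 basal markers, 1.14 and 0.420 FPKM for the 3 endothelial markers, and 0.843 and 0.636 FPKM for the 4 leukocyte markers. The 5 fibroblast markers summed to 6.65 to 8.92 FPKM in parental and 8.26 to 14.7 FPKM in resistant libraries, and DCN was listed at 0 in parental and at 3.63, 3.78 and 4.35 FPKM in resistant libraries. In bulk RNA, fewer cells of a type and less RNA per cell cannot be told apart.

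In the resistant cells 5 of the 10 genes rose and none passed the test as lower, while 1, JARID2, was lower at an unadjusted p below 0.05 (limma). DNMT3A rose the most, 2.53-fold, followed by DNMT3B at 1.60-fold, EZH2 and UHRF1 at 1.47-fold each and EZH1 at 1.45-fold. SUZ12, EED, JARID2, DNMT1 and KDM1A did not pass. The number that rose was 3 without resistant library 2 and 4 without any other single library, and EZH1 and UHRF1 are the genes whose calls were lost. The test was limma on log2(FPKM + 0.1) over the 24468 genes that averaged 0.1 FPKM or more, two-sided, with Benjamini-Hochberg adjusted p below 0.05 as the threshold. Of all tested genes, 22.1% passed as higher and 22.3% as lower, or 44.4% in all, so the share of the 10 genes that passed is close to that of the whole table, with all 5 of them in 1 direction. Only DNMT3A both passed and differed at least 2-fold, while 28.5% of all genes did. The median log2 difference over the 10 genes was 0.37, beside -0.05 over all tested genes. The groups did not overlap for 8 of the 10 genes, against 54.8% of all genes. Resistant values were the higher ones for 7 of them, against 26.6% of all genes, and the lower ones for 1, against 28.1%. The labels do not say whether replicates were separate cultures, so these p-values measure the spread between the libraries, which may be technical.

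**Figure D1:**
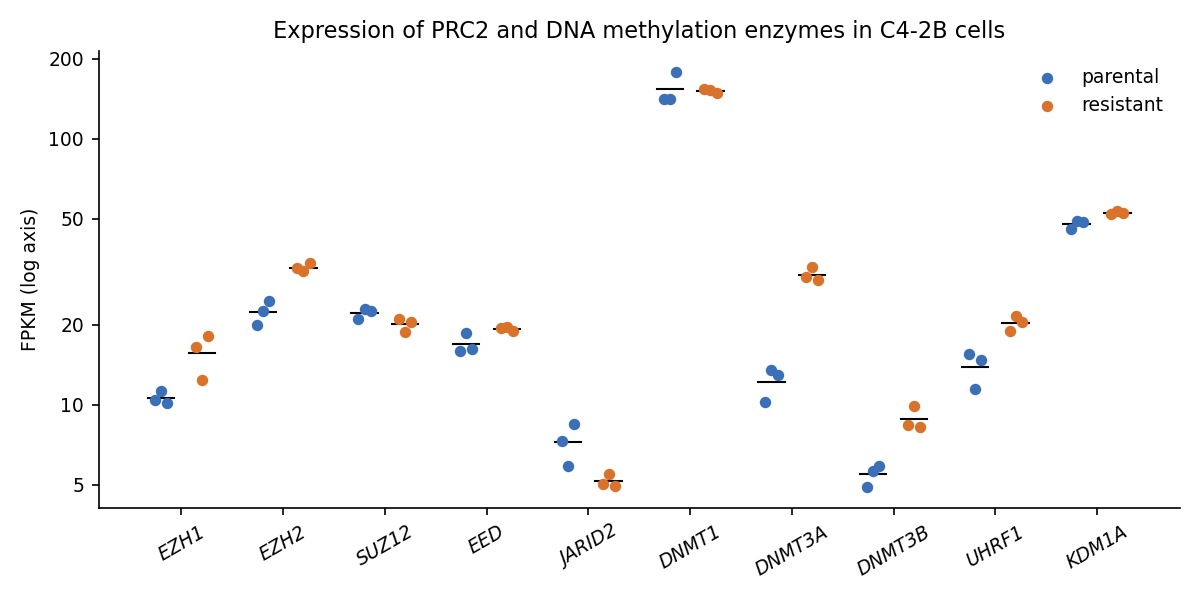
FPKM of the 10 genes in each library on a log axis, with parental libraries in blue, resistant libraries in orange and a black line at each group mean (n = 3). The groups separate for 8 genes, while those of SUZ12 touch and those of DNMT1 overlap, and DNMT1 stands highest in every library.

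The promoters of 4 of the genes that rose, and of DNMT1 beside its partner UHRF1, are shown so that their sequence can be set beside these values. Each is the first RefSeq start listed with an E2F match, or the first listed where there was none, and for DNMT3A the first start of the upstream and of the internal set. Each window holds 250 bases before the start and 30 after it, from RefSeq on GRCh38.p14, written 5′ to 3′ on the strand of the gene. Capitals mark a match to an E2F motif, written as its reverse complement where it lies on the other strand, the binding sequence of the factors that drive S-phase genes.
EZH2, chr7:148884262-148884541, minus strand: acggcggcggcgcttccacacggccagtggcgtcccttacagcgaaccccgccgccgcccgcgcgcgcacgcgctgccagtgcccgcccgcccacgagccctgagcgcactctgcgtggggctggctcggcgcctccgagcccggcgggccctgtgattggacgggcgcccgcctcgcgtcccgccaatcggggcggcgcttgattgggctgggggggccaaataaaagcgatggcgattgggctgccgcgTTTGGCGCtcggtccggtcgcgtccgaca
UHRF1, chr19:4909251-4909530, plus strand: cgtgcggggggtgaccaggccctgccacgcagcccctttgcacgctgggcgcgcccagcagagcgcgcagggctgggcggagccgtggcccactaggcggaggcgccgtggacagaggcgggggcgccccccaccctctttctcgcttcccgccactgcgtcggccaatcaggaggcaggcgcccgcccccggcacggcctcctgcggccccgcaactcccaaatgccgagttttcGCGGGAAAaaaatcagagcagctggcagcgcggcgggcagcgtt
DNMT1, chr19:10194924-10195203, minus strand: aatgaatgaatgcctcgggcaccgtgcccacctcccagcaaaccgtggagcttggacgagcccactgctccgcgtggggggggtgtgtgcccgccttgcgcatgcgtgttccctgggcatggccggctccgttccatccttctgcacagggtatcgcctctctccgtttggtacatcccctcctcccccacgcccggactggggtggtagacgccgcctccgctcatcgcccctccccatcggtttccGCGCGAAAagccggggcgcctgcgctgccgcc
DNMT3A, chr2:25342454-25342733, minus strand: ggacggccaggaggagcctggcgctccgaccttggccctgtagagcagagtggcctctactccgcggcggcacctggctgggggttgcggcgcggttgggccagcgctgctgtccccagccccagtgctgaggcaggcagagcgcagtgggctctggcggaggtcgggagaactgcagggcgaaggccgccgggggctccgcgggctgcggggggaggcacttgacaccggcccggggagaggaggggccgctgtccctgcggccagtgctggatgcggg
DNMT3A, chr2:25252286-25252565, minus strand: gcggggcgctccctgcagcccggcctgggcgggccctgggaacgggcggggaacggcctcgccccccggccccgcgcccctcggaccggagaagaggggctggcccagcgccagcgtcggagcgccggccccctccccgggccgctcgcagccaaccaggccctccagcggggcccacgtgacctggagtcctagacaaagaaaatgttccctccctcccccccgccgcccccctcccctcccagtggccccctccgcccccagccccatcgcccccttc
DNMT3B, chr20:32779602-32779881, plus strand: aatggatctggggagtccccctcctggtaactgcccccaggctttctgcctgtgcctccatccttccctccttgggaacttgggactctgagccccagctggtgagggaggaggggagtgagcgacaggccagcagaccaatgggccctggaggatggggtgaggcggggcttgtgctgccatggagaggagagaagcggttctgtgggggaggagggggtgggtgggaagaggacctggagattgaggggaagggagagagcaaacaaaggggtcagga

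The E2F forms searched were TTTCCCGC, TTTCGCGC, TTTGCCGC and TTTGGCGC on both strands, and 3.14% of all 35116 RefSeq promoter windows of 280 bases held one. Among the 19 windows of the 10 genes 6 did, from DNMT1, EZH1, EZH2, SUZ12 and UHRF1. By gene a match was in 3.82% of all genes and in 5 of the 10. Of these 5 genes 3 rose, and DNMT1 and SUZ12 did not pass. Whether a match goes with a rise was not tested. In EZH2 and DNMT1 the match began within 2 bases of the annotated start. CCAAT, the NF-Y motif, was in 33.6% of all windows and in 7 of the 19, and by gene in 38.7% of all genes and in 6 of the 10. It occurred 4 times in the window printed for EZH2. TTTGAA, the CHR motif of cell cycle genes, was in 14.5% of all windows and in 2 of the 19, the one of SUZ12 and an internal one of DNMT3A that is not printed. The windows held a median of 13 CpG dinucleotides over all promoters, with 45 in the one of EZH2, 27 in that of DNMT1, 32 in the printed window of UHRF1 and 3 in that of DNMT3B. The DNMT3B window belongs to a start that lies inside the gene as GENCODE draws it, and other starts of DNMT3B were not analysed here. A match is a description of letters and not a measured binding site.

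EZH2 (ENSG00000106462.10, chr7:148807257-148884321, minus strand, GRCh38) encodes the catalytic subunit that predominates in dividing cells. It was measured at 19.9, 22.5 and 24.5 FPKM in parental libraries 0, 1 and 2 and at 32.7, 31.7 and 34.0 FPKM in the resistant ones. All resistant libraries were above all parental libraries. The means were 22.3 ± 2.28 and 32.8 ± 1.14 FPKM (SD, n = 3), and the log2 difference was 0.56 with an SE of 0.10 (limma, adjusted p = 0.00489). The 95% interval of the fold ran from 1.25 to 1.74.

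EZH1 (ENSG00000108799.12, chr17:42700275-42745049, minus strand) encodes the alternative catalytic subunit, which is the more abundant one in many resting tissues. Its values were 10.4, 11.2 and 10.2 FPKM in parental and 16.5, 12.4 and 18.1 FPKM in resistant libraries. The groups did not overlap, but resistant library 1 lay nearer to the parental values than to the other resistant ones. The log2 difference was 0.54 with an SE of 0.16 (limma, adjusted p = 0.0344), from 10.6 ± 0.551 to 15.7 ± 2.95 FPKM. Leaving out resistant library 1 gave 0.70 with adjusted p = 0.00857. Leaving out any of the other libraries ended the call, with adjusted p = 0.0894, 0.0577 and 0.0909 without parental libraries 0, 1 and 2 and 0.103 and 0.0993 without resistant libraries 0 and 2. A fit without the variance trend also ended it (adjusted p = 0.0642).

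The balance of the catalytic subunits was compared as the ratio of EZH2 to EZH1 within a library, which a scaling factor for each library leaves as it is. EZH2 stood above EZH1 in all 6 libraries, with ratios of FPKM of 1.91, 2.00 and 2.40 in parental and 1.98, 2.56 and 1.88 in resistant cells. The groups overlapped, and the mean log2 ratio differed by 0.02 (exact permutation test, two-sided, p = 1). With 3 libraries against 3, the exact permutation test cannot go below p = 0.1. The difference changed sign in 3 of the 6 sets of 5 libraries, which were those without parental library 0, parental library 1 or resistant library 1 (-0.05, -0.01 and -0.12).

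The core subunits other than the enzymes did not pass the test. SUZ12 (ENSG00000178691.10, chr17:31937007-32001038, plus strand) was measured at 21.0, 23.0 and 22.6 FPKM in parental and 21.0, 18.7 and 20.5 FPKM in resistant libraries. The groups touched at 21.0 FPKM, and the log2 difference was -0.14 with a 95% interval from -0.36 to 0.07 (limma, adjusted p = 0.245). SUZ12P1, a pseudogene copy of SUZ12, was listed at 19.8 ± 3.14 FPKM in parental and 16.1 ± 2.85 FPKM in resistant cells, so reads may have been split between the near-identical copies and the level of SUZ12 is uncertain. EED (ENSG00000074266.18, chr11:86201212-86278813, plus strand) was measured at 16.0, 18.6 and 16.3 FPKM in parental and 19.4, 19.7 and 19.0 FPKM in resistant libraries. Every resistant value was above every parental one, yet the log2 difference of 0.19 had an interval from -0.04 to 0.43 (limma, adjusted p = 0.149). For EED and SUZ12 the intervals leave room for no difference and do not show equal levels.

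The ratio of EZH2 to SUZ12, chosen after its values were seen and given without a test, was 0.949, 0.980 and 1.08 in parental and 1.56, 1.70 and 1.66 in resistant libraries. As listed, EZH2 was thus near SUZ12 per length in parental cells and above it in all 3 resistant libraries. SUZ12P1, with which SUZ12 may share reads, was listed at 19.8 and 16.1 FPKM on average in parental and resistant cells. The level of SUZ12 is therefore uncertain, and neither parity nor excess of the transcripts can be concluded from this ratio.

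JARID2 (ENSG00000008083.13, chr6:15246069-15522042, plus strand) was the only one of the 10 genes whose resistant values all lay below the parental ones. It was measured at 7.29, 5.91 and 8.50 FPKM in parental and 5.05, 5.52 and 4.97 FPKM in resistant libraries. The log2 difference was -0.46 with an SE of 0.17 and an interval from -0.87 to -0.05, which did not pass after adjustment (limma across all genes, adjusted p = 0.0699, from an unadjusted value of 0.0335). Without parental library 1, whose value was the lowest of its group, the difference was -0.60 and passed (adjusted p = 0.0272). The antisense gene JARID2-AS1 was at most 0.544 FPKM in any library. The strand used in counting is not stated.

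**Figure D2:**
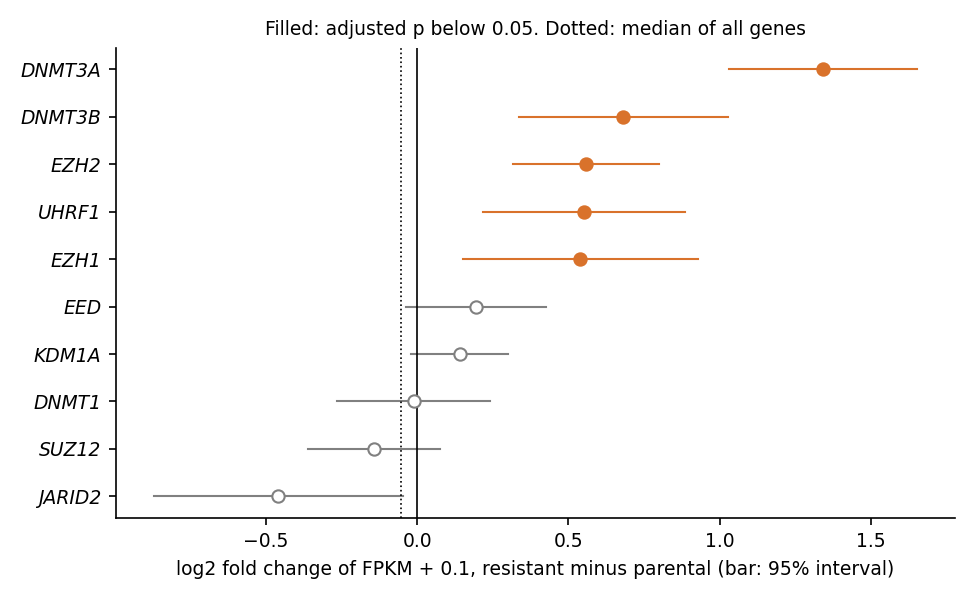
Log2 fold change of each of the 10 genes, resistant minus parental, with bars for the 95% intervals from limma, filled orange points for adjusted p below 0.05 and a dotted line at the median of all tested genes (-0.05). DNMT3A stands apart at 1.34, DNMT3B, EZH2, UHRF1 and EZH1 lie between 0.54 and 0.68, and JARID2 is lowest at -0.46.

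Among the DNA methylation genes, both de novo enzymes rose while the maintenance enzyme did not pass. DNMT3A (ENSG00000119772.16, chr2:25227855-25342590, minus strand) was measured at 10.3, 13.5 and 12.9 FPKM in parental and 30.3, 32.9 and 29.5 FPKM in resistant libraries. The lowest resistant value was more than 2-fold above the highest parental one. The means were 12.2 ± 1.72 and 30.9 ± 1.74 FPKM, with a log2 difference of 1.34, an SE of 0.13 and a fold interval from 2.04 to 3.14 (limma, adjusted p = 0.000369). The call held without each library in turn, with differences from 1.22 to 1.42. The gene has 6 RefSeq starts, 3 at its upstream end and 3 inside the gene, with 89.6 kb between the sets, and FPKM per gene does not separate the transcripts that begin at each.

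DNMT3B (ENSG00000088305.18, chr20:32762385-32809359, plus strand), the second de novo enzyme and the one more typical of embryonic cells, was measured at 4.91, 5.66 and 5.91 FPKM in parental libraries. In resistant libraries it was at 8.41, 9.93 and 8.27 FPKM, without overlap. The log2 difference was 0.68 with an SE of 0.14 (limma, adjusted p = 0.00928), from 5.49 ± 0.519 to 8.87 ± 0.920 FPKM. DNMT3A exceeded DNMT3B in every library. The ratio of DNMT3B to DNMT3A was 0.479, 0.420 and 0.458 in parental and 0.278, 0.302 and 0.280 in resistant libraries, so the groups separated toward DNMT3A. The mean log2 ratio differed by -0.66 (exact permutation test, two-sided, p = 0.1, the smallest it can give, and 0.15 adjusted over the 3 ratios tested). DNMT3L, their catalytically inactive partner in germ cells, was listed at 0 in all 6 libraries.

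DNMT1 (ENSG00000130816.14, chr19:10133342-10231286, minus strand) had the highest level of the 10 genes, at 140.9, 141.4 and 179.0 FPKM in parental and 153.6, 152.5 and 148.4 FPKM in resistant libraries. Parental libraries 0 and 1 lay below the resistant ones and parental library 2 above them. The log2 difference was -0.01 with an interval from -0.27 to 0.24 (limma, adjusted p = 0.939), and its sign depended on the scaling. The interval leaves room for no difference and does not show equal expression. Without parental library 2 the difference was 0.10.

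UHRF1 (ENSG00000276043.4, chr19:4903080-4962154, plus strand), the partner that recruits DNMT1, was measured at 15.5, 11.5 and 14.8 FPKM in parental and 19.0, 21.5 and 20.4 FPKM in resistant libraries. The groups did not overlap, and the log2 difference was 0.55 with an SE of 0.14 (limma, adjusted p = 0.0184). Without resistant library 1 or 2 the adjusted p was 0.0631 and 0.0582, which no longer passed, with differences of 0.51 and 0.55. The ratio of UHRF1 to DNMT1 was 0.110, 0.0812 and 0.0825 in parental and 0.124, 0.141 and 0.137 in resistant libraries. All resistant ratios were above all parental ones, with a mean log2 difference of 0.57 (exact permutation test, two-sided, p = 0.1, adjusted 0.15).

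The summed level of DNMT3A and DNMT3B per level of DNMT1, chosen after its values were seen and not tested, was 0.108, 0.135 and 0.105 in parental and 0.252, 0.281 and 0.255 in resistant libraries. The de novo transcripts thus remained below that of DNMT1 in every library, with a mean log2 difference in the ratio of 1.19.

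**Figure D3:**
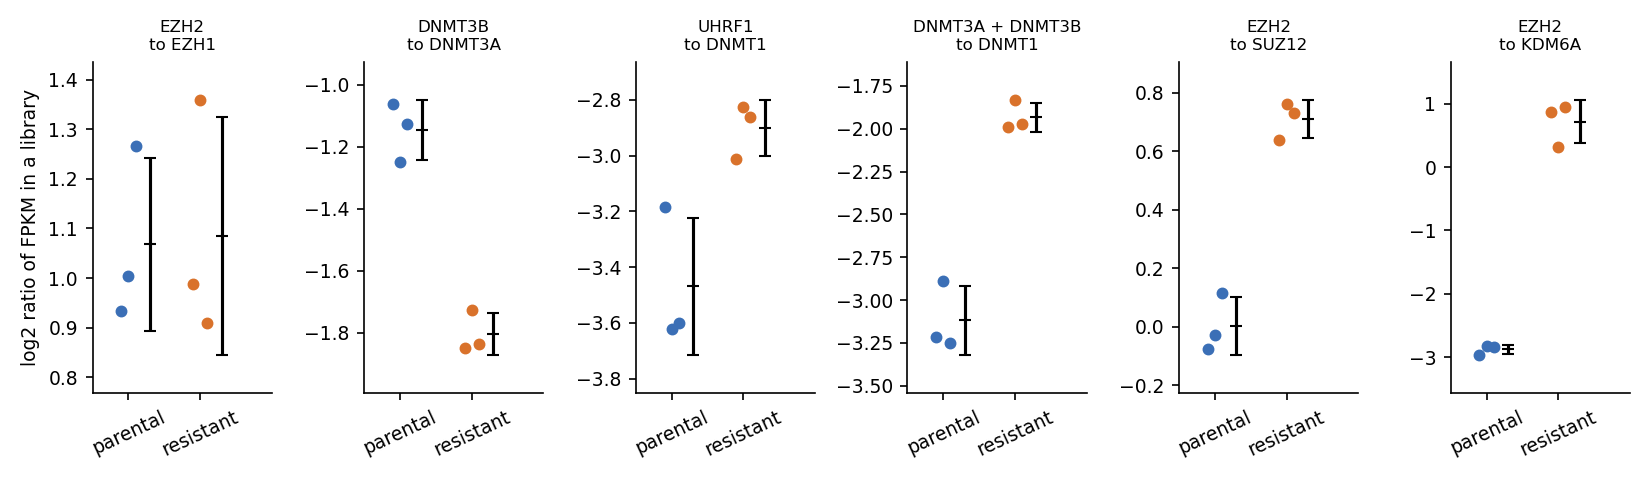
Log2 ratio of FPKM within each library for 6 pairs of genes, with blue points for parental, orange points for resistant libraries and black marks for mean ± SD (n = 3). The vertical scales differ between panels. Only the ratio of EZH2 to EZH1 overlaps between the groups, and the last 3 ratios were chosen after their values were seen.

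KDM1A (ENSG00000004487.15, chr1:23019443-23083689, plus strand) was the second most abundant of the 10 genes, with 45.9, 49.1 and 48.8 FPKM in parental and 52.3, 53.7 and 52.4 FPKM in resistant libraries. The groups separated by a small margin. The log2 difference was 0.14 with an interval from -0.02 to 0.30 and did not pass (limma, adjusted p = 0.135). It passed under median-of-ratios scaling (log2 difference 0.24, adjusted p = 0.0256), which also shifted the median of all genes by 0.10. It passed as well under quantile normalization (0.25, adjusted p = 0.0227) and after rescaling without the genes that hold over 1% of the sum (0.21, adjusted p = 0.0471). The call for KDM1A therefore depends on how libraries are scaled. LUZP1, which shares its assembled locus, was higher by 0.84 on the log2 scale (limma, adjusted p = 0.00919), from 5.79 ± 1.18 to 10.3 ± 0.255 FPKM.

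Ordered by level per length, parental cells had DNMT1 first, then KDM1A, EZH2, SUZ12, EED, UHRF1, DNMT3A, EZH1, JARID2 and DNMT3B. Neighbours whose ranges overlapped were EZH2 with SUZ12, UHRF1 with DNMT3A, and DNMT3A with EZH1. In resistant cells the order was DNMT1, KDM1A, EZH2, DNMT3A, UHRF1, SUZ12, EED, EZH1, DNMT3B and JARID2, where EZH2 overlapped DNMT3A, UHRF1 overlapped SUZ12 and SUZ12 overlapped EED. In parental cells JARID2 and DNMT3B nearly touched, at 5.91 FPKM. DNMT3A moved from the seventh place to the fourth, and JARID2 and DNMT3B exchanged the lowest places.

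Likeness of pattern was measured as the Euclidean distance between log2(FPKM + 0.1) values centred on their mean over the 6 libraries, among the 16382 genes that averaged 1 FPKM or more. Among the genes nearest to EZH2 were SLC11A2 (0.0719), an iron transporter, and RHOT2 (0.112), a mitochondrial GTPase. SLC11A2 ran from 51.2 to 62.8 FPKM in parental and 80.3 to 90.2 FPKM in resistant libraries. Nearest to EZH1 were RGS5 (0.154), MMD (0.167) and COX19 (0.206), which shared its low value in resistant library 1. Nearest to DNMT1 were TSSC4 (0.0995), BCLAF1 (0.101) and TDRKH (0.106), each with its highest value in parental library 2. The distances describe 6 libraries that share their scaling and 2 groups, and carry no test.

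S-phase genes are the group with which EZH2, UHRF1 and DNMT1 are commonly co-expressed, so a list of 19 of them was read in the same fit. Of these, 12 rose, 1 fell and 6 did not pass, or 68.4% called beside 44.4% of all genes. The median log2 difference was 0.52, beside -0.05 over all tested genes. The list summed to 1431 to 1668 FPKM in parental and 2086 to 2325 FPKM in resistant libraries. MCM7, a subunit of the replicative helicase, was at 152.4 ± 5.90 FPKM in parental and 327.6 ± 28.2 FPKM in resistant cells (log2 difference 1.10, limma, adjusted p = 0.000129). PCNA, the replication clamp, was at 106.6 ± 6.80 and 223.9 ± 16.2 FPKM (log2 difference 1.07, limma, adjusted p = 0.000162), and MCM6, another helicase subunit, rose by 1.16 on the log2 scale. TK1, the gene that fell, differed by -0.58 on the same scale. The part of S-phase transcripts in the differences of the 10 genes was not tested.

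Among the other subunits of PRC2, more genes rose than fell. Of 9 genes on the list, 8 were tested, 4 rose, 1 fell and 3 did not pass, with a median of 0.34. This made 62.5% called among few genes, beside 44.4% of all genes. PHF19, a Polycomb-like protein that guides PRC2 to chromatin, was at 4.96, 6.63 and 3.64 FPKM in parental and 14.2, 14.8 and 17.5 FPKM in resistant libraries, without overlap (log2 difference 1.63, SE 0.23, limma, adjusted p = 0.00185). PHF1, its paralog, rose from 16.6 ± 2.71 to 29.2 ± 3.42 FPKM (log2 difference 0.82, limma, adjusted p = 0.00608). AEBP2, the zinc finger subunit found in the form of PRC2 that also holds JARID2, rose from 22.9 ± 1.11 to 33.4 ± 3.05 FPKM (log2 difference 0.54, limma, adjusted p = 0.00503), while JARID2 itself did not pass. MTF2, the remaining Polycomb-like gene, had a log2 difference of 0.38 and C17orf96, also called EPOP, one of -0.57, and both passed. MTF2 no longer passed in at least 1 set of 5 libraries (adjusted p up to 0.0564). The histone chaperone subunits RBBP4 and RBBP7 did not pass.

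Genes of PRC1, the complex that ubiquitinates histone H2A, went in both directions. Of 20 genes 5 rose, 7 fell and 8 did not pass, with a median of -0.03. The share called was 60.0%, beside 44.4% of all genes. Without parental library 1 or 2, or resistant library 2, 3 genes rose rather than 5. RING1, a catalytic subunit, rose from 19.2 ± 0.514 to 32.9 ± 1.72 FPKM (log2 difference 0.77, limma, adjusted p = 0.000535). CBX2, a reader of H3K27 methylation, fell from 27.7 ± 0.636 to 14.8 ± 1.39 FPKM (log2 difference -0.90, limma, adjusted p = 0.000606). RYBP, a subunit of the PRC1 forms without CBX proteins, fell from 8.28 ± 0.462 to 3.60 ± 0.158 FPKM (log2 difference -1.18, limma, adjusted p = 0.000652).

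Of 6 erasers of the marks, 1 rose, 1 fell and 4 did not pass, with a median of 0.01. Called genes made up 33.3% of the list, beside 44.4% of all genes. KDM6A, also called UTX, which removes H3K27 methylation, was measured at 155.6, 160.3 and 176.0 FPKM in parental and 17.8, 25.3 and 17.7 FPKM in resistant libraries. The highest resistant value was far below the lowest parental one, with a log2 difference of -3.03 and an SE of 0.15 (limma, adjusted p = 3.42e-05). The ratio of EZH2 to KDM6A was again chosen after its values were seen. It was 0.128, 0.140 and 0.139 in parental and 1.84, 1.25 and 1.92 in resistant libraries. The transcript of EZH2 thus stood below that of KDM6A in every parental library and above it in every resistant one. KDM6B, the other H3K27 demethylase listed, was at 42.6, 66.0 and 46.0 FPKM in parental and 53.1, 48.5 and 39.8 FPKM in resistant libraries. That was above EZH2 in every library, so the change of order does not extend to KDM6B. TET2, which oxidises methylated cytosine, rose from 4.39 ± 0.170 to 11.1 ± 0.784 FPKM (log2 difference 1.32, limma, adjusted p = 0.000319). KDM6B, TET1, TET3 and TDG did not pass.

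Of 16 partners and readers of DNA methylation, 15 were tested, 3 rose, 5 fell and 7 did not pass, with a median of -0.28. The share called was 53.3% of those tested, beside 44.4% of all genes. Without parental library 2 or resistant library 0 the number that fell was 2, and without resistant library 1 it was 3. HELLS, a remodeller that supports methylation in packed chromatin, rose from 47.3 ± 6.20 to 116.3 ± 9.21 FPKM (log2 difference 1.30, limma, adjusted p = 0.000278). CDCA7, the activator of HELLS, rose from 9.87 ± 0.742 to 18.5 ± 1.62 FPKM (log2 difference 0.90, limma, adjusted p = 0.00122). CDCA7L, the paralog of CDCA7, went the other way, from 42.1, 39.6 and 40.0 FPKM in parental to 2.07, 1.56 and 2.24 FPKM in resistant libraries (log2 difference -4.32, limma, adjusted p = 1.21e-05).

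The partners of KDM1A were also split, with 4 higher, 4 lower and 6 not passing of the 14 tested from a list of 16. Their median was 0.04, and 57.1% of those tested were called, beside 44.4% of all genes. HDAC2, the deacetylase of the same corepressor complex, rose from 60.0 ± 2.14 to 112.3 ± 1.22 FPKM (log2 difference 0.90, limma, adjusted p = 9.44e-05). RCOR2, a scaffold of that complex, was at 0.282, 0.429 and 0.185 FPKM in parental and 8.57, 4.74 and 5.01 FPKM in resistant libraries (log2 difference 3.95, limma, adjusted p = 0.000321). The related scaffolds RCOR1 and RCOR3 did not pass. ZNF217, a zinc finger protein found with KDM1A, fell from 71.4 ± 6.73 to 9.74 ± 0.722 FPKM (log2 difference -2.86, limma, adjusted p = 1.32e-05).

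**Figure D4:**
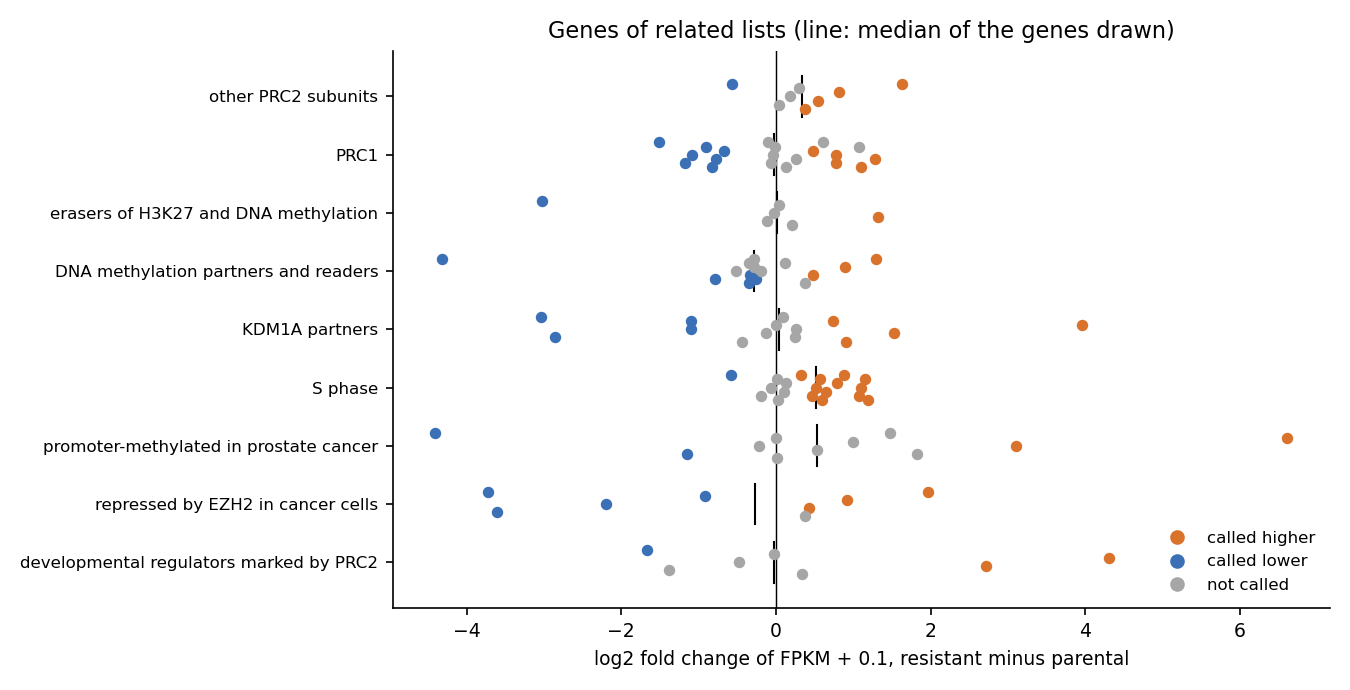
Log2 fold change of each tested gene in 9 related lists, resistant minus parental, with orange points for genes called higher, blue for lower, grey for not called, and a black line at the median of the genes drawn. Genes at 0 in every library of a group are left out, and S-phase genes lie mostly to the right while most other lists spread to both sides of 0.

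Genes known as targets of the 2 silencing systems did not move one way. Of 12 genes described as repressed by EZH2 in cancer cells, 9 were tested, 4 rose, 4 fell and 1 did not pass. This made 88.9% called among few genes, beside 44.4% of all genes. The median was 0.38, but -0.27 without SLIT2, so with so few genes its sign turns when 1 of them is left out. SLIT2 and NKD1 reached the limit of 0.1 FPKM only through the group where they are high, so each had to differ and they are given as values. SLIT2, a secreted guidance protein, was at 0 in every parental library and at 2.76, 3.51 and 2.22 FPKM in the resistant ones. NKD1, an antagonist of WNT signalling, was at 1.50 ± 0.132 FPKM in parental and 0.0312 ± 0.00715 FPKM in resistant cells.

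Of 23 developmental regulators that carry PRC2 marks in stem cells, 14 were under the limit of 0.1 FPKM. Of the 9 tested 3 rose, 2 fell and 4 did not pass, or 55.6% called beside 44.4% of all genes. All 3 that rose reached the limit only through the resistant libraries, where they are high. NKX2-2, which fell, reached it only through the parental libraries, at 0.206 to 0.354 FPKM, and was at 0 in every resistant one. The filter thus shaped these counts, and they are no support for a direction. Only 1 fell without parental library 0 or 2, or resistant library 0 or 1. NKX2-5, a heart transcription factor, was listed at 0 in parental and at 4.21, 3.79 and 5.74 FPKM in resistant libraries. PAX6, an eye and brain transcription factor, was at 0.0155 ± 0.0137 FPKM in parental and 2.19 ± 0.321 FPKM in resistant cells. EVX1, a homeobox gene, was at 0.0958 ± 0.0300 and 1.22 ± 0.373 FPKM. The median of the 9 was -0.02.

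Of 20 genes whose promoters are often methylated in prostate cancer, 13 were tested, 3 rose, 2 fell and 8 did not pass, with a median of 0.54. The share called was 38.5% of those tested, beside 44.4% of all genes. CD44, a cell adhesion receptor, was at 0.0120, 0.543 and 0.181 FPKM in parental and 23.7, 24.1 and 32.8 FPKM in resistant libraries (log2 difference 6.61, limma, adjusted p = 0.000325). AOX1, an aldehyde oxidase, was at 0.0340 ± 0.0353 FPKM in parental and 1.08 ± 0.401 FPKM in resistant cells. AOX1 and RPRM, which was listed at 0 in parental libraries, are 2 of the 3 that rose, and both reached the limit of 0.1 FPKM only through the resistant libraries. MGMT, a DNA repair enzyme, fell from 25.3 ± 1.16 to 1.11 ± 0.201 FPKM (log2 difference -4.40, limma, adjusted p = 1.51e-05). GSTP1, whose promoter is methylated in most prostate cancers, was at most 0.461 FPKM and was not tested. Methylation of DNA or histones was not measured in these libraries. Over the 9 lists, with each gene counted once, 39 of 113 tested genes rose and 27 fell, which makes 58.4% called beside 44.4% of all genes. The lists were chosen with earlier results of these data known, so this share is not independent evidence.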

How the data were processed

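RNA-Seq was performed on 3 parental and 3 resistant libraries with single-end reads of 50 bp. According to the study's methods, the authors used TrimGalore 0.4.3 for trimming, STAR 2.5.3 for alignment (GRCh38, GENCODE v25) and Cufflinks 2.2.1 for expression. The submitters' processing notes list FastQC 0.10.1, Trimmomatic 0.27 and the mouse build mm10 instead, and the labels name more than one library kit, TruSeq V2 RNA-Seq and TruSeq Stranded Total RNA. The deposited table names no unit, and its values were taken as FPKM made by the authors.

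The whole table was fitted with limma 3.58.1 (R 4.3.3, mean-variance trend) on log2(FPKM + 0.1) for genes that averaged 0.1 FPKM or more, and p-values were adjusted over all of them. Fold changes on this scale understate those of low genes. In simulated data of 24468 genes with 200 changed, 49 of 109 genes changed by 2 log2 units and 18 of 91 changed by 1 were called, all with the right sign, with 2 false calls. In the measured data 44.4% of genes passed, a far larger share than was changed in the simulation. Its rates therefore do not describe the sensitivity of this comparison. Ratios were compared by exact permutation. Positions came from GENCODE v44, which matched 56980 gene identifiers and all 10 members, and promoters from RefSeq. Tables were handled with Python 3.11.15, pandas 2.3.3 and scipy 1.17.1.

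The members and lists were chosen with earlier results of these data known. Named genes were all 10 members, from each list the 3 called genes of smallest adjusted p whose groups did not overlap, and the 3 genes nearest in pattern to EZH2, EZH1 and DNMT1. Some genes covered by this rule are not reported here. Markers and other genes given with values were named because a result touches them. The alternatives covered the pseudocount, the filter, scaling, the trend, a replicate block, the thresholds and each library left out. The LNCaP libraries and the protein and qRT-PCR data of the study were not analysed here.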

Additional observations from a re-analysis of the deposited data

How the results depend on the processing

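The number of the 10 genes called higher was 5, and it was 3 with a replicate block, 3 at adjusted p below 0.01, 1 when a 2-fold difference was also required, 4 without the variance trend, and 3 to 4 with each library left out. It was 6, with KDM1A added, under median-of-ratios scaling, quantile normalization and rescaling without the most abundant genes. DNMT3A, DNMT3B and EZH2 passed with each library left out and with the block. The number called lower was 0, and 0 to 1 with each library left out, through JARID2 without parental library 1. Over the related lists 39 genes rose and 27 fell, or 19 and 16 with the 2-fold requirement. These lower counts at stricter thresholds follow from the thresholds themselves. The log2 difference of DNMT1 turned from -0.01 to 0.093 under median-of-ratios scaling, 0.14 under quantile normalization and 0.058 after rescaling without the most abundant genes, and ran from -0.071 to 0.10 with each library left out, positive without parental library 2 (0.10) or resistant library 2 (0.0024). The log2 ratio of EZH2 to EZH1 differed by 0.02 and by -0.12 to 0.12 with each library left out, negative without parental library 0 (-0.05), parental library 1 (-0.01) or resistant library 1 (-0.12). The cause was not tested.

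Replicate numbers did not pair the libraries. Deviations of same-numbered parental and resistant libraries from their group means correlated at 0.00802, 0.0165 and -0.00301 across genes, and not every library correlated best with its own number. With the replicate block, EZH1 (adjusted p = 0.0739, limma) and UHRF1 (adjusted p = 0.0521, limma) no longer passed, which leaves 3 of the 10 genes. Over all genes 4670 passed as higher and 4793 as lower with the block, against 5405 and 5463 without it. Genes passing as lower numbered 3320 with the 2-fold requirement.

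Precision is limited by 3 libraries per group and by depth, and how much each contributes was not measured, since the table holds no counts. The lowest value of the 10 genes stood for about 198 reads.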
